A study of Mus musculus with 4 samples.

Results

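Matrix metalloproteinases and the tissue inhibitors that bind them (TIMPs) were examined in bone marrow cells of Col2-Cre Rosa26 lsl-tdTomato (Col2:Td) mice at 4 ages. The set held 10 genes, chosen by name with earlier results of these data known. They were the 7 metalloproteinases Mmp2, Mmp3, Mmp9, Mmp11, Mmp13, Mmp14 and Mmp16 and the 3 inhibitors Timp1, Timp2 and Timp3. All 10 were found by symbol among the 26600 genes listed in every one of the 4 tables. In these mice Cre under the Col2 promoter turns on the red reporter Td, and cells are labelled by having had that Cre active, whatever they express later. The groups were male mice of strain B6SJL/F1 aged 1 month (2 mice), 1.5 months (3 mice), 3 months (3 mice) and 16 months (3 mice), all carrying the same Cre and reporter. Endosteal marrow was released by enzymatic digestion, the brightest Td+ cells, or the Td+ peak where one stood out, were sorted, and the mice of an age were pooled into 1 library of single cells. With 1 library per age there was no replicate, so no difference between ages or between classes of cells has a test, and age, library and mice cannot be told apart.

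Metalloproteinases are zinc enzymes that cut collagens and other matrix proteins outside the cell. Most are made as inactive precursors and are opened by furin-type convertases, by plasmin or by one another, and TIMPs block the active site of the mature enzymes. In bone they are known from the removal of cartilage at the growth plate, the clearing of collagen from bone surfaces by cells of the osteoblast lineage, and bone resorption by osteoclasts. Neutrophils store gelatinase and neutrophil collagenase in their granules.

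The tables held 27907 barcodes with 32672631 to 108227184 UMIs per library, and 24084 cells passed the study's limits of 200 to 6000 genes and at most 5% mitochondrial UMIs (8308, 5453, 4180 and 6143 cells at 1, 1.5, 3 and 16 months, with medians of 6264 to 10279.5 UMIs). The mitochondrial limit removed 2987 barcodes at 16 months and 98 to 326 at the other ages, and the 16 month table also listed another set of genes and of barcodes. Between 1 and 61 cell barcodes were shared by any pair of libraries. Levels are in CPM, a gene's UMIs over all cells of a class scaled by the UMIs of all genes there, with the 95% Poisson interval in parentheses where it reaches more than 10% from the level, and shares of cells with the exact Clopper-Pearson one. Neither interval holds more than counting error. Lists of 4 values are in the order of the libraries, 1, 1.5, 3 and 16 months. Mesenchymal cells, sorted by markers into classes called EMP-like (early mesenchymal progenitors), LMP-like (late mesenchymal progenitors), OB-like (osteoblasts), Ocy-like (osteocytes), AD-like (the adipocyte lineage, with Adipoq, Lpl and Cxcl12), CH-like (chondrocytes) and hypertrophic CH-like, made up 26.8%, 94.3%, 60.1% and 78.5% of the cells. Hematopoietic cells made up 68.5%, 2.66%, 31.1% and 12.8%. The unnamed mesenchymal cluster with the highest Cdh15 in each library did not meet the marker rule and is called the Cdh15-high class (1.204%, 2.88%, 5.41% and 6.09% of the cells), with Spp1 among its 10 leading genes in all libraries. At 3 months it was led by Pf4, Mmp9, Angpt4, Limch1 and Kcnk2, without Cdh15 among the first 10 genes, and whether it is the same kind of cell at all ages was not tested. The 5 megakaryocyte markers, Pf4 among them, summed to 22.8, 8.87, 1168 and 8.56 CPM in the class. The part of that RNA in its levels was not tested. None of the 10 genes was used to define the clusters.

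In every library 9 of the 10 genes were higher in mesenchymal than in hematopoietic cells, and Mmp9 alone was higher in hematopoietic cells. With the 1.5 month library clustered alone, Mmp16 there changed side, to a log2 difference of -0.16. At 1 month 8 of the 9 members with at least 10 CPM in the higher group were at least 2-fold higher in mesenchymal cells, against 30% of the 8069 genes tested in the same way. At 3 months the count was 8 of 9 against 28.7% of all genes, and at 16 months 8 of 9 against 33.7%. The members were chosen with earlier results of these data known, so these counts only describe the set. Of the 2 other metalloproteinases that reached 50 CPM in a class, Mmp8 was higher in hematopoietic cells at 1 month, at 251 against 34.8 CPM. Mmp23 was higher in mesenchymal cells there, at 141 against 6.44 CPM. At 1.5 months it was 3 of 8 (Mmp2, Mmp16 and Timp3), against 17.7%. The 145 hematopoietic cells of that library carried all 6 general mesenchymal markers at a summed 13305 CPM, compared with 1566, 1268 and 4517 CPM in the hematopoietic cells at 1, 3 and 16 months, and the part of this RNA in the smaller count was not tested. The 1 member past the fold in the other direction was Mmp9 in each library, where 15.6%, 15.5%, 17.3% and 14.0% of all genes were higher in hematopoietic cells.

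**Figure D1:**
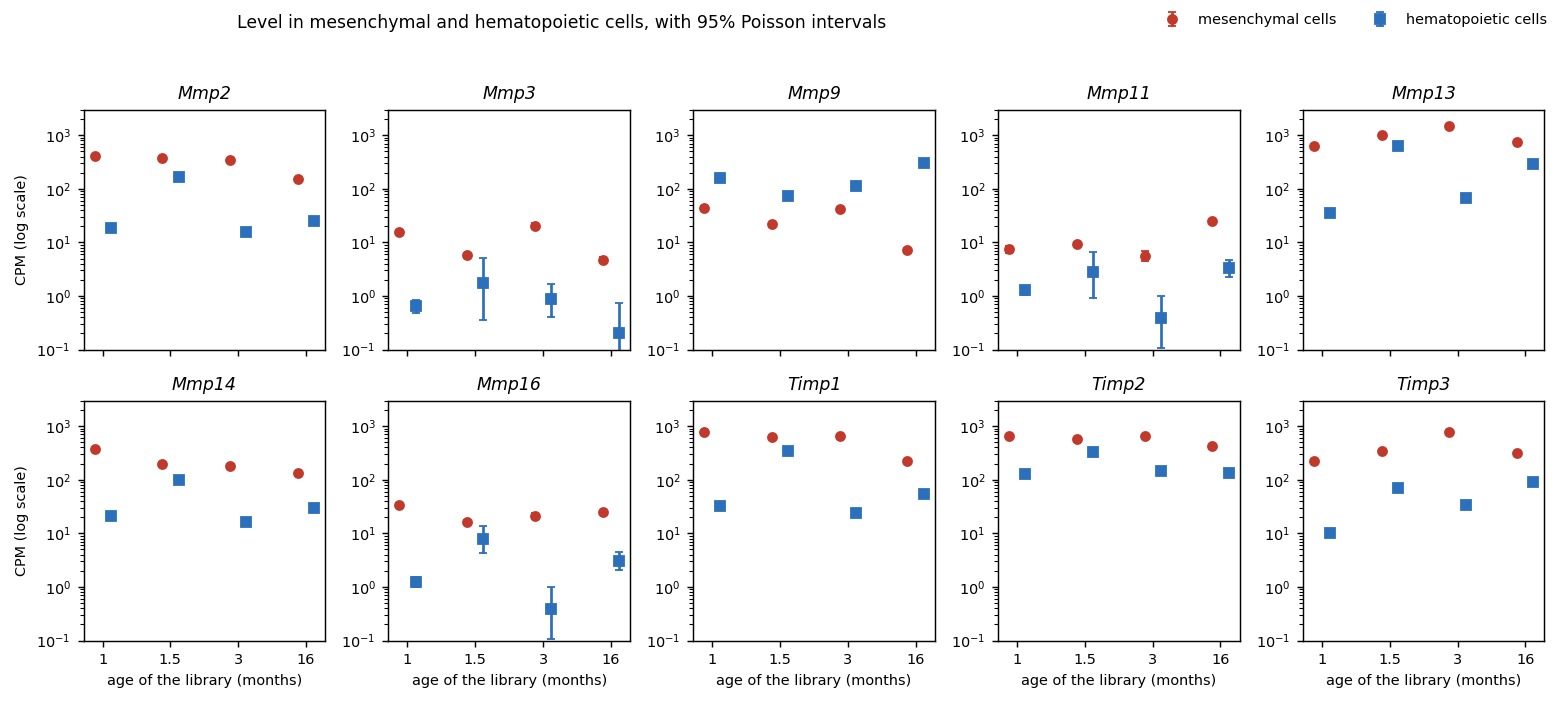
Level of the 10 genes (CPM on a log axis) in mesenchymal cells (red circles) and hematopoietic cells (blue squares) of the 4 libraries, by age in months, with 95% Poisson intervals, which are cut at the lower edge of the axis. The red circles lie above the blue squares in all panels except that of Mmp9, where hematopoietic cells reached 303 CPM at 16 months.

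The plot of levels in mesenchymal and hematopoietic cells shows where the UMIs of a gene sat, but the mixture inside each group differed between libraries. AD-like cells made up 2.91%, 21.4%, 10.2% and 60.0% of the cells and CH-like cells 4.53%, 23.2%, 16.9% and 0.879%, and levels are therefore given by class as well. In the heat map of levels by class, the metalloproteinases and inhibitors did not follow one order: Mmp2, Mmp14 and Timp2 peaked in LMP-like cells, Mmp9 and Mmp13 in the Cdh15-high class and Mmp16 in OB-like cells. For these 6 of the 10 genes the same mesenchymal class was the highest in all 4 libraries.

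**Figure D2:**
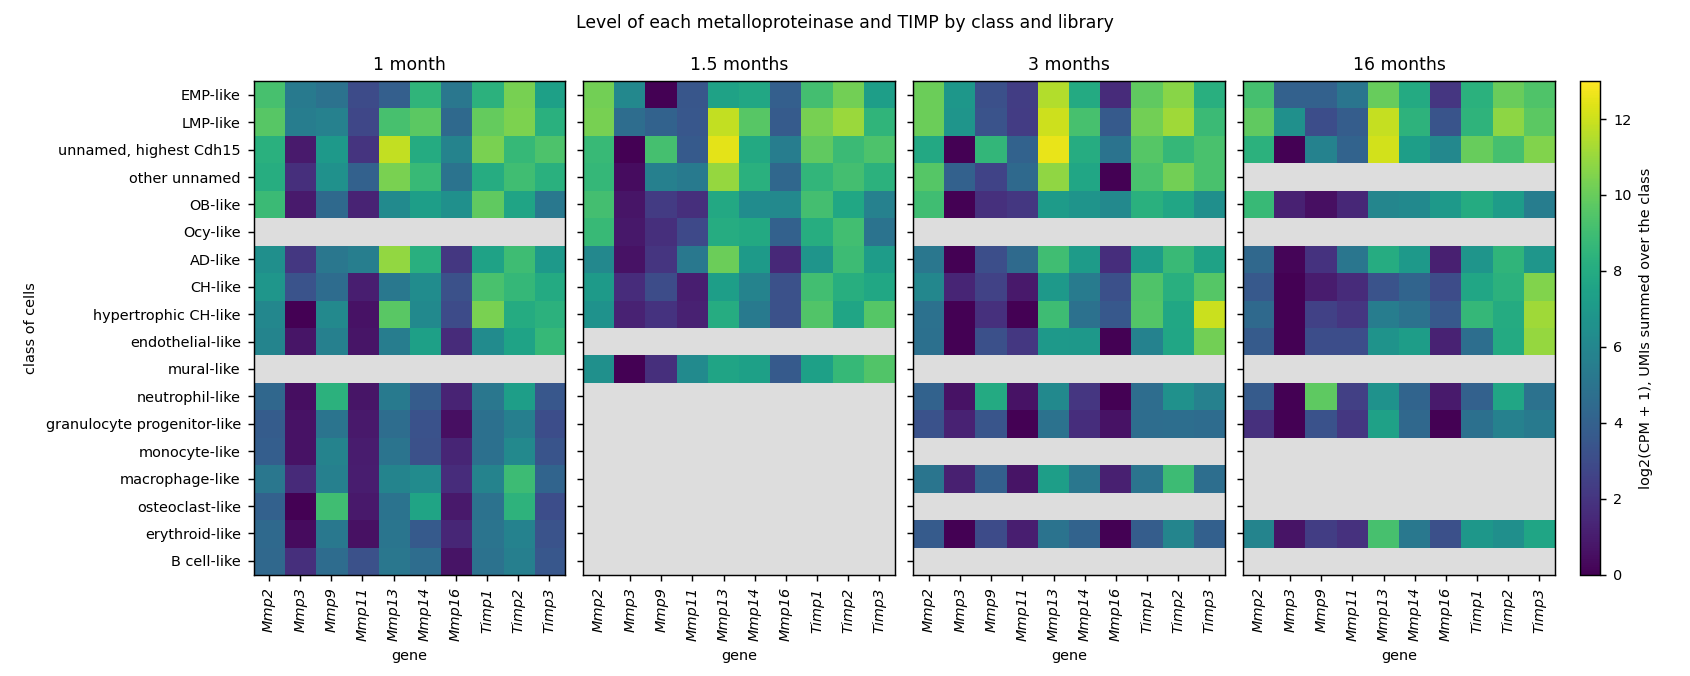
Level of each of the 10 genes (columns) in each class of cells (vertical axis) in the 4 libraries (panels), as log2(CPM + 1) in colour, with grey for classes with fewer than 50 cells in a library. Mmp13 in the Cdh15-high class gave the highest value of each panel, and Mmp3 had a value of 0 in the Cdh15-high class at 1.5, 3 and 16 months.

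Mmp2, gelatinase A, cuts denatured and basement membrane collagens and is activated on the cell surface by Mmp14. The gene lies at chr8:92827291-92853420 on the plus strand (GRCm38). In mesenchymal cells it was at 408, 378, 351 and 151 CPM. In LMP-like cells it reached 787, 1291, 1088 and 891 CPM, and in EMP-like cells 599, 1194, 1068 and 581 CPM. The intervals of these neighbours in the order did not overlap at 1, 1.5 and 16 months and overlapped at 3 months. OB-like cells had 467, 551, 507 and 429 CPM, a narrower range over the ages than in any other class named here. AD-like cells had 87.1 (74.2 to 102), 66.9, 35.2 (27.1 to 45.1) and 19.7 CPM, at each age less than the age before, and hypertrophic CH-like cells 64.7 (53.3 to 77.8), 96.9, 27.3 (19.9 to 36.6) and 20.8 CPM (11.1 to 35.5). After thinning each cell to 3000 UMIs, 85.8% (83.0 to 88.4), 92.6% (90.7 to 94.2), 88.9% (85.6 to 91.6) and 84.7% (79.5 to 89.0) of LMP-like cells had a Mmp2 UMI, compared with 4.85% (3.92 to 5.93), 3.76% (2.17 to 6.04) and 2.43% (0.983 to 4.94) at 1, 3 and 16 months in neutrophil-like cells, a class that is not known to make it. Without thinning these shares were 96.8%, 97.5%, 95.98% and 96.7% and 16.7%, 8.09% and 4.99%, at median depths of 8874.5, 9028, 5273 and 8869.5 and of 11574, 5985 and 7211 UMIs, and thinning left out 0, 0, 24 and 2 and 0, 57 and 53 cells with fewer UMIs.

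Mmp9, gelatinase B, is the metalloproteinase of osteoclasts and of neutrophil granules, and lies at chr2:164940780-164955850 on the plus strand. Hematopoietic cells held it at 159, 72.6 (60.5 to 86.4), 114 and 303 CPM, and mesenchymal cells at 44.7, 21.9, 42.1 and 7.06 CPM (6.37 to 7.81). Hematopoietic cells therefore exceeded mesenchymal cells 3.54-fold (3.33 to 3.77), 3.32-fold (2.75 to 3.99), 2.70-fold (2.46 to 2.97) and 42.9-fold (38.5 to 47.8). Without CH-like cells among the mesenchymal cells, which was tried after the data were seen, the difference was less than 2-fold at 1.5 and at 3 months. Hematopoietic cells supplied 89.1%, 9.10%, 56.9% and 87.3% of the library's Mmp9 UMIs, with the low value at 1.5 months in the library that had 145 such cells. Within the hematopoietic cells the source changed with the class. With the neutrophil-like cells taken as a whole, osteoclast-like cells were the highest named class at 1 month, at 516 CPM. The 49 osteoclast-like cells at 3 months had 403 CPM (351 to 461). The mature neutrophil cluster described below was higher than these cells at both ages. At 1 month the 10% of osteoclast-like cells with the most Mmp9 held 63.7% of the class's 1183 Mmp9 UMIs, with a median of 1 per cell. A hematopoietic cluster of 108 cells at 1 month, left unnamed, held 478 Mmp9 UMIs. Its median was 4 per cell, as in the neutrophil-like cells of that library. Neutrophil-like cells had 325, 249.9 and 864 CPM at 1, 3 and 16 months and supplied 63.5%, 43.1% and 86.0% of all Mmp9 UMIs at those ages. Granulocyte progenitor-like cells stood at 30.5 (27.6 to 33.7), 9.74 (6.79 to 13.6) and 8.56 CPM (5.30 to 13.1) at 1, 3 and 16 months. At 3 and 16 months this cluster was led by Prss34, with Mcpt8 among its 10 leading genes. Both are basophil or mast cell markers, and at 1 month such cells formed a class of their own (193 cells). The class is therefore not the same mixture of cells at these ages.

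The neutrophil-like cells of the 1 and 3 month libraries separated into a cluster with genes of neutrophil precursors (Camp, Ngp, Ltf) and one with genes of mature cells (Retnlg). At 1 month the mature cluster had 651 CPM and the precursor cluster 180.4 CPM, a 3.61-fold (3.45 to 3.77) difference. At 3 months they had 525 CPM and 70.2 CPM (59.4 to 82.5), 7.47-fold (6.25 to 8.97) apart. Timp2 differed in the same direction, with 247 CPM against 116 CPM at 1 month and 164 CPM (144 to 187) against 48.6 CPM (39.6 to 58.9) at 3 months. At 1 month these 2 of 7 members were past 2-fold, against 2.94% of all genes, and at 3 months 5 of 6, against 10.6%. The other 3 at 3 months were Mmp13, Timp1 and Timp3, whose levels of 129.7, 41.8 and 98.0 CPM in the mature cluster were a fraction of those in mesenchymal cells. At 16 months the neutrophil-like cells formed a single cluster. With neutrophil-like cells alone in place of all hematopoietic cells, also tried after the data were seen, Mmp9 was again the 1 member at least 2-fold lower in mesenchymal cells at 1, 3 and 16 months, against 13%, 12.7% and 13.2% of all genes. In each of these libraries 8 of 9 members were higher in mesenchymal cells, against 48.1%, 53.1% and 49.4%.

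Among mesenchymal classes Mmp9 was highest in the Cdh15-high class, at 131 (110.0 to 155), 576, 386 and 52.7 CPM (46.2 to 59.8). Most of that signal came from a handful of cells. A limit of 10 Mmp9 UMIs per cell, chosen after the values were seen, was met by 9, 9, 7 and 3 mesenchymal cells at 1, 1.5, 3 and 16 months, 28 in all, of which 15 were in the Cdh15-high class. They held 36.9, 78.2, 83.4 and 61.6% of the mesenchymal Mmp9 UMIs of their library, and the highest cell of each library had 113, 471, 213 and 210 of them. Without them the Cdh15-high class stood at 37.8, 20.6, 22.7 and 4.20 CPM. The value of 576 CPM at 1.5 months depended on which of these cells were assigned to the class: it was 198 CPM at a resolution of 0.5, 195 at 1.2 and 242 CPM with the library clustered alone.

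The 28 cells also carried other members. A Mmp13 UMI was found in 26 of them and a Mmp14 UMI in 27. Their Mmp13 level was 8494, 18234, 20708 and 8061 CPM, against 609, 1002, 1443 and 746 CPM in all other mesenchymal cells, and their Mmp14 level 1298, 1615, 1788 and 449 CPM against 365, 193, 174 and 131 CPM. The rest of the Cdh15-high class was nearer in Mmp13, at 3622, 5018, 5645 and 4450 CPM. Its Mmp14 level was 238, 173, 208 and 152 CPM. No Mmp16 UMI was counted in any of the 28 cells. The 6 OB markers summed to 3007, 3037, 3255 and 4168 CPM in these cells and to 46693, 40609, 55916 and 36285 CPM in the other mesenchymal cells. CH markers summed to 18061, 9766, 286 and 74.9 CPM, against 13527, 41498, 24323 and 692 CPM in the other mesenchymal cells and 369, 4003, 1495 and 432 CPM in the rest of the Cdh15-high class. AD markers summed to 1992, 1468, 1216 and 16123 CPM, against 2625, 6479, 4837 and 27969 CPM in the other mesenchymal cells and 620.0, 1317, 5985 and 4067 CPM in the rest of that class. The median depth was 10312, 9743, 8235 and 14660.0 UMIs, against 9839.5, 9507, 6364 and 9760.0 in the other mesenchymal cells. Osteoclast markers summed to 1894, 147, 179 and 149.7 CPM, against 275, 188, 248 and 206 CPM in the other mesenchymal cells, and 1 of the 9 cells at 1 month held 111 UMIs of the osteoclast marker Acp5, while the highest of the other 27 held 2. Mature neutrophil markers summed to 517, 11.3, 17.9 and 25.0 CPM against 1015, 7.88, 61.5 and 8.45 CPM. Mmp8, the collagenase of neutrophils, was at 22.8, 0.739, 2.89 and 0.220 CPM in the Cdh15-high class and at 25.9, 0.479, 0.917 and 0.424 CPM in OB-like cells. Doublets were not called, so a part of joined cells among the 28 was not tested.

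**Figure D3:**
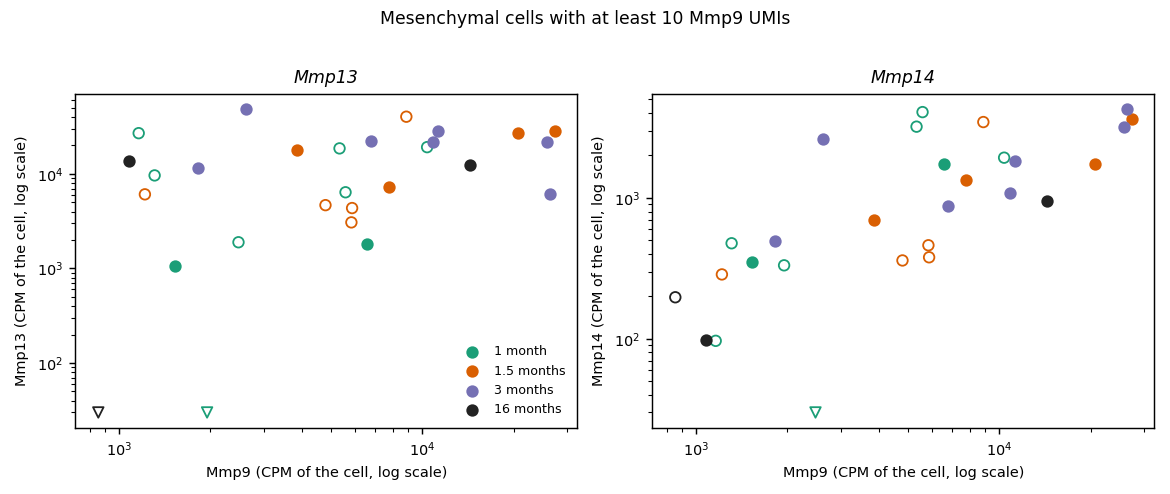
The 28 mesenchymal cells with at least 10 Mmp9 UMIs, with Mmp9 (horizontal, CPM of the cell, log axis) against Mmp13 (left) and Mmp14 (right, both CPM of the cell, log axis), coloured by the age of the library. Filled symbols are cells of the Cdh15-high class, open symbols cells of other classes, and triangles at the lower edge cells without a UMI of the gene on the vertical axis. Only 2 cells lacked Mmp13 and 1 lacked Mmp14.

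In the plot of single cells with Mmp9, the points of the 3 month library are all filled, while those of the 1 month library are mostly open, because 7 of 7 such cells fell into the Cdh15-high class at 3 months and 2 of 9 at 1 month.

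Mmp3, stromelysin 1, cuts proteoglycans and non-collagen matrix proteins and opens the precursors of other metalloproteinases. It is on chromosome 9 at chr9:7445822-7455975, plus strand, in a cluster of 10 Mmp genes that spans 427 kb and starts with Mmp13, 162 kb away. Mmp3 was at 15.6 (14.1 to 17.2), 5.74 (5.14 to 6.401), 20.4 (18.4 to 22.6) and 4.68 CPM (4.12 to 5.30) in mesenchymal cells. LMP-like cells had 44.8 (39.7 to 50.3), 24.1 (20.9 to 27.7), 108 (95.7 to 121) and 91.7 CPM (80.1 to 105) and EMP-like cells 38.5 (28.1 to 51.5), 66.4 (51.3 to 84.7), 117 (89.2 to 152) and 15.5 CPM (8.68 to 25.6). The LMP-like and EMP-like classes held 61.6% and 9.76% of the Mmp3 UMIs at 1 month, 60.4% and 19.6% at 1.5 months, 78.7% and 15.4% at 3 months, and 87.8% and 5.91% at 16 months. These levels depended on how the cells were divided. At a resolution of 1.2 the LMP-like class had 4.85, 5.22, 0 and 93.7 CPM of Mmp3, and with the 1 month library clustered alone it had 5.06 CPM at that age. EMP-like cells at 3 months had 54.3 CPM at a resolution of 0.5. In the Cdh15-high class there was 1 Mmp3 UMI at 1 month and 0 at the other ages, where 3 counts would be 2.22, 1.74 and 0.659 CPM. OB-like cells had 5, 4, 0 and 9 UMIs at 1, 1.5, 3 and 16 months.

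The LMP-like cells of the first 3 libraries held a subcluster led by Ostn and Postn (259, 480 and 237 cells at 1, 1.5 and 3 months) and one led by Nppc and Nov (401, 412 and 236 cells). Mmp3 was higher in the second. Few cells held it, with 97.2%, 100% and 94.3% of the class's Mmp3 UMIs in 10% of the LMP-like cells. Mmp3 was at 3.29 CPM (1.51 to 6.25) in the Ostn cells and 79.0 CPM (70.0 to 88.9) in the Nppc cells at 1 month. At 1.5 months the Ostn cells had 1.28 CPM (0.468 to 2.78) of it and the Nppc cells 56.0 CPM (48.4 to 64.4). At 3 months a single Mmp3 UMI gave the Ostn cells 0.681 CPM (0.0172 to 3.79), while the Nppc cells reached 230.3 CPM (205 to 258). Other members ran the other way. Mmp13 was at 1169 CPM in the Ostn and 172 CPM in the Nppc cells at 1 month, at 5008 CPM and 1901 CPM at 1.5 months, and at 6884 CPM and 1086 CPM at 3 months. Timp1 was 3.23-fold (3.06 to 3.43), 2.46-fold (2.35 to 2.58) and 6.21-fold (5.60 to 6.90) higher in the Ostn cells, and Mmp14 1.94-fold (1.83 to 2.05), 1.91-fold (1.81 to 2.02) and 4.57-fold (4.00 to 5.23). Mmp2 and Timp2 differed little, by 1.18-fold (1.11 to 1.25), 1.13-fold (1.09 to 1.18) and 1.40-fold (1.30 to 1.50) and by 1.19-fold (1.14 to 1.24), 1.31-fold (1.27 to 1.35) and 1.34-fold (1.27 to 1.41). In all, 4 of 9, 4 of 10 and 5 of 9 members were at least 2-fold higher in the Ostn cells, against 3.31%, 3.11% and 7.78% of all genes. They were Mmp9, Mmp13, Mmp16 and Timp1 in each library, with Mmp14 at 3 months. For Mmp9, 1 LMP-like cell held 113 of the class's 332 UMIs at 1 month, and 1 held 38 of 133 at 1.5 months. At 3 months the LMP-like class as a whole was under 10 CPM. The part of single cells in the Mmp9 difference was not tested. Mmp3 alone was past the fold in favour of the Nppc cells in each of the 3 libraries, where 7.42%, 6.43% and 10.5% of all genes were.

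**Figure D4:**
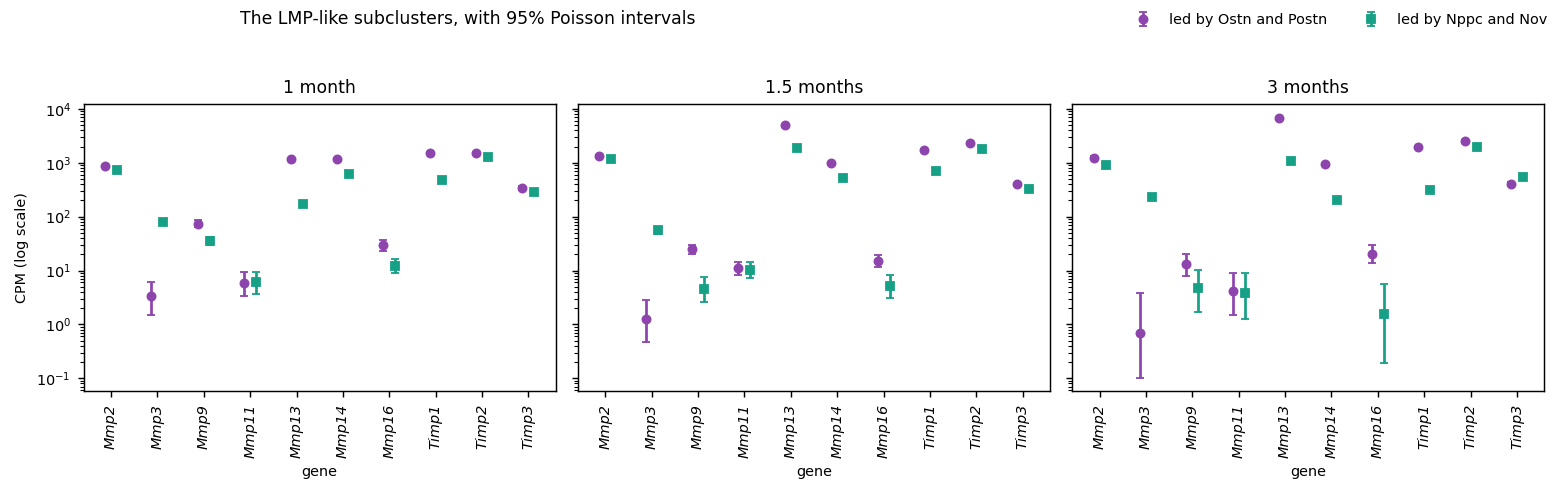
Level of the 10 genes (CPM on a log axis) in the LMP-like subclusters led by Ostn and Postn (purple circles) and by Nppc and Nov (green squares) at 1, 1.5 and 3 months, with 95% Poisson intervals. Mmp3 is the gene whose green square lies far above its purple circle in each panel, and Mmp13 and Timp1 show the reverse.

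The plot of the LMP-like subclusters has no panel for 16 months, since the 244 LMP-like cells formed 1 subcluster there, with both Ostn and Nov among the leading genes. Its Mmp3 level was 91.7 CPM (80.1 to 105), its Mmp13 level 3646 CPM and its Timp1 level 355 CPM.

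Mmp11, stromelysin 3, is unusual in being activated inside the cell by furin. It lies at chr10:75923222-75936496 on the minus strand and overlaps Chchd10 on the other strand. Mesenchymal cells had 7.42 (6.39 to 8.58), 9.31, 5.64 (4.59 to 6.85) and 25.3 CPM. AD-like cells had 46.6 (37.2 to 57.5), 35.4 (31.1 to 40.1), 21.8 (15.5 to 29.8) and 33.0 CPM, and supplied 27.5%, 42.1%, 33.6% and 82.8% of the Mmp11 UMIs. The mural-like cells of the 1.5 month library, 65 cells, were higher, at 73.6 CPM (50.01 to 104). EMP-like cells at 16 months, with 32.1 CPM (21.8 to 45.5), were level with AD-like cells of that library. AD markers summed to 9506 CPM in these EMP-like cells, against 385 CPM at 3 months, and the part of that RNA was not tested. OB-like cells stood at 1.49 (0.643 to 2.93), 2.39 (1.34 to 3.95), 3.36 (1.68 to 6.02) and 1.69 CPM (0.876 to 2.96), and CH-like cells at 1.12 (0.364 to 2.61), 1.16 (0.687 to 1.83), 0.864 (0.280 to 2.02) and 2.04 CPM (0.247 to 7.38). The higher mesenchymal value at 16 months stood beside an AD-like share of 60.0%, while the level within AD-like cells was inside the range of the other ages.

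Mmp13, collagenase 3, is the main interstitial collagenase of rodent bone and is made by hypertrophic chondrocytes and by cells of the osteoblast lineage. It opens the chromosome 9 cluster at chr9:7272514-7283331, plus strand. UMIs count molecules and not length, and by CPM it was the metalloproteinase with the highest level in mesenchymal cells, at 642, 1029, 1503 and 751 CPM. The Cdh15-high class was the highest in all 4 libraries, at 3579, 5607, 6132 and 4497 CPM, and with 1.204%, 2.88%, 5.41% and 6.09% of the cells held 18.6%, 12.1%, 37.1% and 46.6% of the Mmp13 UMIs. LMP-like cells had 599, 3633, 4183 and 3646 CPM, so that they were far below the Cdh15-high class at 1 month and nearer to it later. OB-like cells, by contrast, had 73.9 (66.8 to 81.5), 233, 142 and 61.4 CPM. The Cdh15-high class thus exceeded the OB-like class 48.4-fold (43.7 to 53.8), 24.1-fold (22.7 to 25.5), 43.2-fold (39.4 to 47.5) and 73.2-fold (66.6 to 80.7) in Mmp13.

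In AD-like cells Mmp13 was lower at each later age, at 1904, 1074, 511 and 262 CPM. No pair of these intervals overlapped. The share of AD-like cells with a Mmp13 UMI after thinning was 83.5% (78.2 to 87.9), 77.6% (75.0 to 79.9), 48.5% (43.2 to 53.8) and 25.3% (23.9 to 26.8), beside 5.60% (3.78 to 7.94), 8.10% (5.203 to 11.9) and 10.6% (6.08 to 16.9) at 1, 3 and 16 months in granulocyte progenitor-like cells. Without thinning the shares were 90.9%, 87.1%, 52.8% and 44.7% and 33.8%, 24.6% and 29.2%, at median depths of 7008.5, 5721, 3882 and 9538 and of 24053.5, 12788 and 10942 UMIs, and thinning left out 0, 2, 67 and 74 and 0, 5 and 13 cells. Among the AD-like subclusters at 16 months Mmp13 ranged from 109 CPM to 439 CPM, all below the AD-like level at 3 months. EMP-like cells had 14.5 (8.46 to 23.3), 176 (150.5 to 204), 2921 and 992 CPM, but the 3 month value depended on which cells the class took: it was 812 CPM at a resolution of 0.5 and 24.1 CPM at 1.2. In hypertrophic CH-like cells the level was 807, 261, 489.8 and 44.7 CPM (29.7 to 64.6), and it was concentrated in single cells: the 10% of cells with the most Mmp13 held 95.1, 67.4 and 93.7% of the Mmp13 UMIs of the class at 1, 1.5 and 3 months, with up to 279, 373 and 102 UMIs in 1 cell. In AD-like cells the top 10% held 38.5, 40.3, 63.7 and 75.5%. Hematopoietic cells at 16 months had 289.6 CPM of Mmp13. Among them an erythroid-like cluster of 177 cells stood at 823 CPM and the other, of 75 cells, at 37.4 CPM (26.4 to 51.6). The erythroid-like cells there carried 6 of 6 mesenchymal markers at a summed 10683 CPM, against 933 CPM at 3 months, and the part of that RNA was not tested.

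Mmp13 and Mmp3 lie in the same cluster on chromosome 9 but peaked in different cells, so their promoters are shown, with that of Mmp14. Each window holds 300 bases, from 250 before to 50 after the start site in the RefSeq annotation of GRCm38.p6. Of the 10 members 7 had a window, and Mmp2, Mmp9 and Mmp16 did not. The windows lie at chr9:7272264-7272563, chr9:7445572-7445871 and chr14:54431348-54431647, all on the plus strand, and are written 5′ to 3′ with capitals for matches on either strand to the AP-1 motif TGANTCA, the Runx motif ACCACA and the TATA box TATAAA.
Mmp13 promoter: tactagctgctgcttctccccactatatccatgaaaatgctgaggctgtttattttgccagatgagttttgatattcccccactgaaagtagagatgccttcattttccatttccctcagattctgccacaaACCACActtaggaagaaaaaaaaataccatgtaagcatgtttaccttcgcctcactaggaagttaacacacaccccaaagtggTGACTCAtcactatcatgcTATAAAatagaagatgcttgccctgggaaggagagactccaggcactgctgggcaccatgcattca
Mmp3 promoter: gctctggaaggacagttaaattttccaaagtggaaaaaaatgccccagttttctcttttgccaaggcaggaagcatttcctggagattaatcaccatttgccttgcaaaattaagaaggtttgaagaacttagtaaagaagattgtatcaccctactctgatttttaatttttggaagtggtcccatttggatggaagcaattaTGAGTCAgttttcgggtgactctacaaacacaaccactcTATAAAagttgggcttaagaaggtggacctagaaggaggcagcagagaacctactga
Mmp14 promoter: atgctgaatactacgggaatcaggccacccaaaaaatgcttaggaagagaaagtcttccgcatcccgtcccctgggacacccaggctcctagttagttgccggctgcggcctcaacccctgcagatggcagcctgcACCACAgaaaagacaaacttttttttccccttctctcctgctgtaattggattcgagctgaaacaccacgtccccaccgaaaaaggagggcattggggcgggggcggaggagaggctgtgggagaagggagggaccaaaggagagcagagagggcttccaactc

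Mmp13 and Mmp3 both held an AP-1 match, 35 and 46 bases before the start site, and a TATA match, 16 and 7 bases before it. A Runx match lay 118 bases before the start of Mmp13 and 114 bases before that of Mmp14, and Mmp3 had none. The windows of Mmp11, Timp1, Timp2 and Timp3 held no match to these letters. Over the 32851 promoters of the same length, 7.81% held TGANTCA, 16.8% ACCACA and 13.6% TATAAA. A match is a description of the sequence, and no binding was measured.

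Mmp14 (MT1-MMP), a collagenase anchored in the cell membrane that activates Mmp2, lies at chr14:54431612-54445364 on the plus strand. Its level in mesenchymal cells was 369, 195, 179 and 131 CPM. LMP-like cells led in all libraries, at 850.4, 789, 599 and 333 CPM, each lower than the age before. The steps up to 3 months depended on the clustering: at a resolution of 1.2 the levels were 1239, 1218, 1197 and 339 CPM. EMP-like cells had 359.8 (326 to 396), 223 (194 to 254), 247 (205 to 295) and 242 CPM (212 to 275) and AD-like cells 296, 136, 139.7 (123 to 158) and 127 CPM, with the highest value of both at 1 month. OB-like cells had 153, 79.8, 106 (95.2 to 118) and 70.8 CPM, below the Cdh15-high class at 258 (228 to 291), 237 (212 to 265), 259 and 155 CPM. Outside the mesenchyme, osteoclast-like cells at 1 month had 195 CPM, endothelial-like cells 168 (147 to 190.1), 122 (105 to 142) and 149 CPM (130.4 to 170.3) at 1, 3 and 16 months, and macrophage-like cells 77.1 (69.4 to 85.4) and 35.0 CPM (26.6 to 45.2) at 1 and 3 months, whereas neutrophil-like cells had 12.8 (11.4 to 14.2), 3.13 (1.56 to 5.61) and 17.4 CPM (13.2 to 22.5) at 1, 3 and 16 months.

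Mmp16 (MT3-MMP), the other membrane-type member, lies at chr4:17852893-18119145 on the plus strand and overlaps Gm11860 on the minus strand. Among mesenchymal classes it was highest in OB-like cells in all libraries, and at 1 month EMP-like cells were above LMP-like cells. OB-like cells had 92.7, 68.2, 69.7 (61.0 to 79.4) and 131 CPM, and from 3.78%, 6.73%, 7.11% and 3.87% of the cells came 47.6%, 43.3%, 58.6% and 67.4% of the Mmp16 UMIs. The Cdh15-high class followed at 55.03 (41.8 to 71.1), 45.1 (34.5 to 57.9), 30.1 (22.5 to 39.5) and 67.2 CPM (59.9 to 75.2). LMP-like cells had 20.7 (17.3 to 24.5), 12.3 (10.0 to 14.9), 11.6 (7.96 to 16.4) and 9.46 CPM (5.995 to 14.2), and AD-like cells 3.25 (1.19 to 7.07), 1.87 (0.996 to 3.20), 2.24 (0.609 to 5.72) and 1.23 CPM (0.898 to 1.65), close to the 1.49 (1.06 to 2.04) and 0.899 CPM (0.185 to 2.63) at 1 and 16 months of neutrophil-like cells. After thinning, 25.2% (20.5 to 30.3), 18.8% (14.9 to 23.2), 18.3% (14.0 to 23.3) and 36.5% (30.3 to 43.0) of OB-like cells had a Mmp16 UMI, beside 0.378% (0.152 to 0.776) of neutrophil-like cells at 1 month and 0 of 425 at 3 and of 288 at 16 months (at most 0.864 and 1.27%). Without thinning the shares were 73.9%, 65.1%, 47.1% and 93.7% in OB-like cells, with median depths of 16732.5, 16788, 10565 and 28291.5 UMIs and 0, 0, 8 and 5 cells left out by thinning, and 2.05%, 0% and 0.293% in neutrophil-like cells.

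Timp1, which inhibits most soluble metalloproteinases, lies at chrX:20870166-20874735 on the plus strand, inside the gene Syn1 on the opposite strand. Mesenchymal cells had 771, 629, 651 and 223 CPM. The Cdh15-high class had 1357, 909, 771 and 1002 CPM, LMP-like cells 972, 1283, 1205 and 355 CPM, and hypertrophic CH-like cells 1321, 712, 747 and 404 CPM (356 to 457). The Cdh15-high class was the highest mesenchymal class at 1 and 16 months and the LMP-like class at 1.5 and 3 months, and at 1 month the intervals of the Cdh15-high and hypertrophic CH-like classes overlapped. OB-like cells were lower in each older library, with 920.0, 549.6, 303 and 250.4 CPM. AD-like cells had 176 (158 to 197), 109, 143 (126 to 161) and 108 CPM. Neutrophil-like cells had 34.3, 23.7 (18.8 to 29.3) and 15.6 CPM (11.6 to 20.4) at 1, 3 and 16 months, and endothelial-like cells 75.2 (61.7 to 90.7), 54.1 (42.9 to 67.4) and 24.9 CPM (17.5 to 34.3) at 1, 3 and 16 months.

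Timp2, which inhibits membrane-type enzymes and takes part with Mmp14 in the activation of Mmp2, lies at chr11:118301069-118355740 on the minus strand and shares bases and strand with Cep295nl. LMP-like cells had 1389, 2116, 2287 and 1777 CPM, EMP-like cells 1271, 1191, 1649 and 1037 CPM, and AD-like cells 496, 473, 442 and 357 CPM. OB-like cells, with 195, 215, 208 and 144 CPM, and hypertrophic CH-like cells, with 255, 196, 209.7 (188 to 233) and 251 CPM (213 to 293), were the lowest named mesenchymal classes in every library. Hematopoietic cells supplied 34.3%, 1.68%, 10.6% and 5.13% of the Timp2 UMIs, after Mmp9 the largest hematopoietic share of a member at 1 month. There the macrophage-like cells had 477 and 484 CPM at 1 and 3 months, osteoclast-like cells 333 CPM at 1 month, and granulocyte progenitor-like cells 47.7, 24.5 (19.7 to 30.2) and 52.1 CPM (43.5 to 62.0) at 1, 3 and 16 months.

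Timp3, bound to the matrix and an inhibitor of ADAM and ADAMTS proteases as well, lies at chr10:86300372-86349506 on the plus strand, inside Syn3 on the opposite strand. Mesenchymal cells had 225, 346, 789.7 and 314 CPM. Hypertrophic CH-like cells had 323, 749.7, 3975 and 2265 CPM, and other CH-like cells 244, 211, 756 and 1498 CPM. At 3 months 1 CH-like subcluster had 1258 CPM and another 372 CPM. Endothelial-like cells had 424, 1189.7 and 1963 CPM at 1, 3 and 16 months, neutrophil-like cells 10.5 (9.34 to 11.9), 52.1 (44.9 to 60.3) and 29.4 CPM (23.8 to 35.8) at 1, 3 and 16 months, and mural-like cells 719 CPM (641 to 805) at 1.5 months. The Cdh15-high class had 665, 654, 613 and 1492 CPM, and OB-like cells only 35.4 (30.5 to 40.8), 51.9 (46.4 to 57.8), 87.5 (77.6 to 98.2) and 44.9 CPM (40.1 to 50.1). The 10% of hypertrophic CH-like cells with the most Timp3 held 54.0, 41.5, 22.6 and 30.4% of the class's Timp3 UMIs, so that this level, unlike that of Mmp13, was shared by most cells at 3 and 16 months, with medians of 32 and 17 UMIs per cell. Hypertrophic against other CH-like cells, the members at least 2-fold higher were Mmp9, Mmp13 and Timp1 at 1 month (3 of 7, against 2.60% of all genes), Timp3 at 1.5 months (1 of 6, 2.49%), Mmp13 and Timp3 at 3 months (2 of 7, 5.37%) and Mmp13 at 16 months (1 of 7, 16.3%). The Mmp9 difference at 1 month rested on 3 cells with 47, 17 and 12 of the 118 Mmp9 UMIs of the class, the first of them the cell with 111 Acp5 UMIs. Mmp2 at 3 months was the 1 member lower in hypertrophic cells, against 8.83%.

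The Cdh15-high and OB-like classes, the ones in which Mmp13 and Mmp16 were highest, were set against each other for all members. At 1, 1.5, 3 and 16 months, 4 of 8, 6 of 9, 6 of 9 and 7 of 9 members were at least 2-fold higher in the Cdh15-high class, against 17.8%, 26.6%, 28.4% and 26.2% of all genes. Mmp9, Mmp13 and Timp3 were among them in every library, Timp3 by 18.8-fold (16.0 to 22.2), 12.6-fold (11.1 to 14.4), 7.01-fold (6.14 to 8.01) and 33.2-fold (29.7 to 37.3). For Mmp9 at 1 and 16 months this rested on the cells with 10 or more Mmp9 UMIs, since without them the Cdh15-high class was less than 2-fold from the 20.5 CPM of OB-like cells at 1 month and under 10 CPM at 16 months. In the other direction, Mmp2 and Mmp16 were past the fold at 3 months, 2 of 9 members against 3.50% of all genes, and 0 members at 1, 1.5 and 16 months, against 4.36%, 2.89% and 3.49%.

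**Figure D5:**
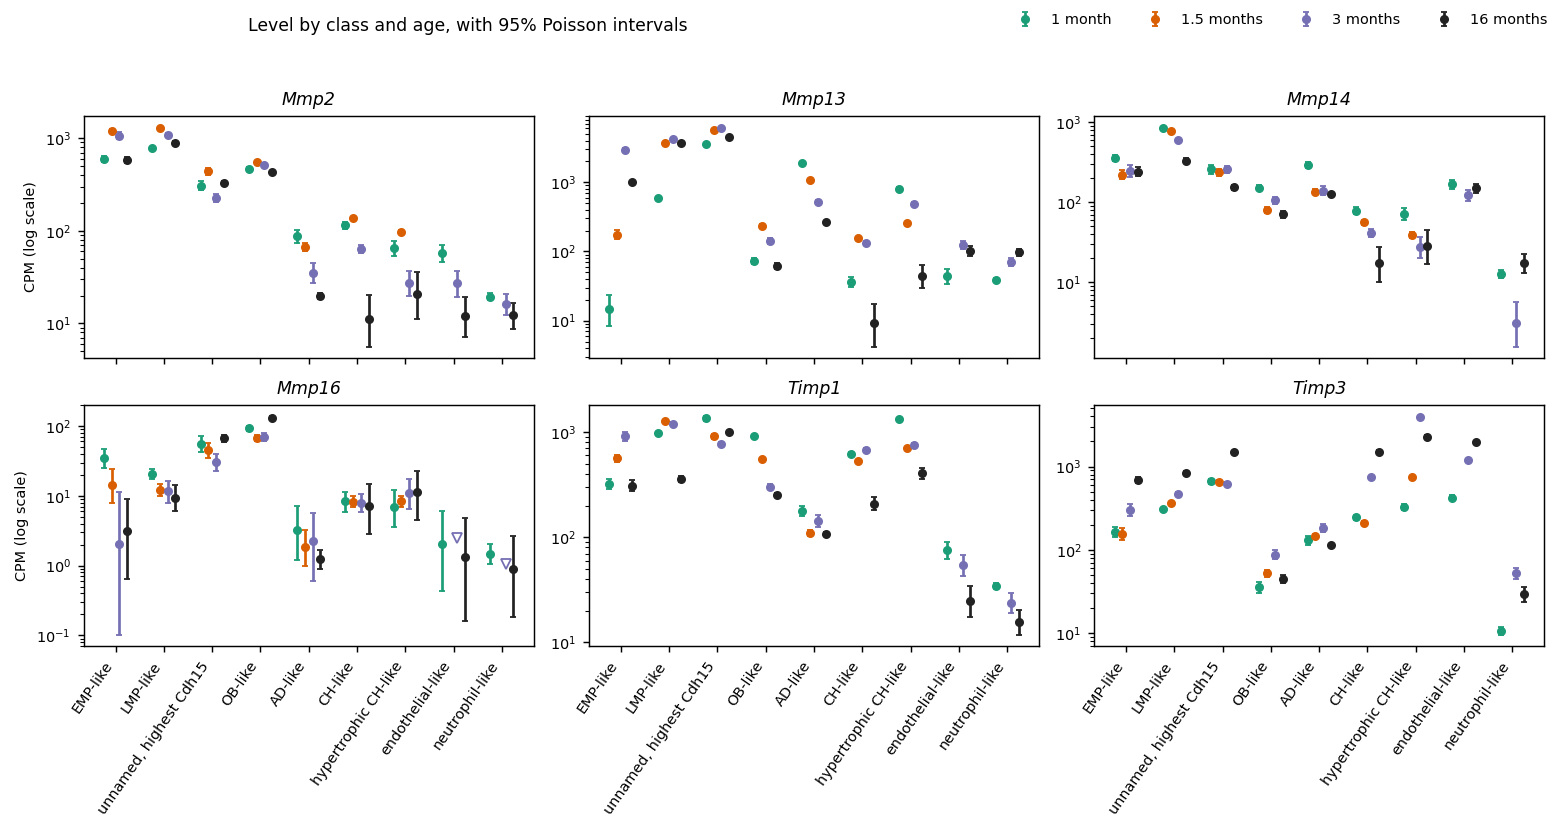
Level of Mmp2, Mmp13, Mmp14, Mmp16, Timp1 and Timp3 (CPM on log axes that differ between panels) by class and by age of the library (colours), with 95% Poisson intervals. Open triangles mark the upper interval bound where no UMI was counted. Mmp13 in AD-like cells is lower at each later age, and Timp3 in hypertrophic CH-like cells is highest at 3 and 16 months.

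The plot of levels by class and age sets the libraries side by side within a class, and the comparison of 16 with 3 months asks how the adult and the aged library differ. In AD-like cells (3688 against 426 cells) 0 of 7 members were at least 2-fold higher at 16 months, against 12.8% of all genes, and 0 were lower, against 4.57%. The nearest was Mmp13, 1.95-fold (1.82 to 2.09) lower. In OB-like cells Mmp13 alone was lower, 2.31-fold (2.02 to 2.64), 1 of 7 members against 6.29% of all genes, and 0 were higher, against 7.86%. At a resolution of 1.2 the OB-like difference in Mmp13 had the opposite sign, with a log2 value of 0.81. Mmp16 in OB-like cells was higher at 16 months by less than 2-fold, 1.88-fold (1.63 to 2.19), with intervals apart. In LMP-like cells Mmp11 was 3.29-fold (1.62 to 7.23) higher, 1 of 9 members against 20.5%, and Timp1 3.40-fold (3.15 to 3.66) lower, 1 of 9 against 7.27%. At a resolution of 1.2 Mmp11 was at 7.68 and 13.4 CPM there, less than 2-fold apart. AD markers summed to 466 and 3730 CPM in the LMP-like cells at 3 and 16 months, and to 385 and 9506 CPM in the EMP-like cells. Their part in the differences of these classes was not tested. In the Cdh15-high class Mmp16 was 2.23-fold (1.66 to 3.06) and Timp3 2.44-fold (2.28 to 2.60) higher, 2 of 9 members against 9.66%, and Mmp9 7.32-fold (6.31 to 8.52) lower, 1 against 11.2%, with 22.7 and 4.20 CPM at 3 and 16 months once the cells with 10 or more Mmp9 UMIs were left out. With up to 10% mitochondrial UMIs allowed, neither Mmp16, at 30.3 and 56.3 CPM, nor Timp3, at 616 and 1074 CPM, was past 2-fold. In CH-like cells (54 cells at 16 months) Mmp2, Mmp13, Mmp14 and Timp1 were lower, 4 of 6 members against 14.6%, and 0 were higher, against 18.7%. In hypertrophic CH-like cells Mmp13 alone, 11.0-fold (7.52 to 16.6), 1 of 7 against 9.05%, was lower, and 0 were higher, against 31.3%. In endothelial-like cells Mmp2 and Timp1 were lower, 2 of 6 against 10.1%, and 0 higher, against 12.8%. AD markers summed to 3029 and 11250.5 CPM in these cells at 3 and 16 months, and their part was not tested. In neutrophil-like cells Mmp9, Mmp14 and Timp2 were higher, 3 of 7 against 33.6%, and 0 lower, against 4.23%. In granulocyte progenitor-like cells Mmp13, Mmp14 and Timp2 were higher, 3 of 5 against 26.1%, and 0 lower, against 4.41%. AD markers summed to 812 and 3577 CPM in the granulocyte progenitor-like cells at 3 and 16 months and to 2009.8 and 6060.3 CPM in the neutrophil-like cells, and 1 progenitor-like cell held 205 of the 421 Mmp13 UMIs at 16 months. Their part in these differences was not tested. In erythroid-like cells 5 of 6 were higher, against 21%, and 0 lower, against 25.7%, beside the mesenchymal markers given above for these cells. In EMP-like cells Mmp11 and Timp3 were higher, 2 of 9 against 28.4%, and Mmp3, Mmp13 and Timp1 lower, 3 against 11.1%, of which Mmp13 and Timp1 changed sign at a resolution of 1.2, to log2 differences of 5.15 and 0.22. With up to 10% mitochondrial UMIs allowed, Mmp13 and Timp3 were less than 2-fold apart, Timp3 at 576 and 639.9 CPM.

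The younger libraries were compared in the same way. At 1.5 against 1 month Mmp13 was 6.07-fold (5.86 to 6.28) higher in LMP-like, 3.15-fold (2.82 to 3.53) in OB-like and 12.1-fold (7.34 to 21.2) in EMP-like cells, the 1 member past 2-fold in each, of 10, 8 and 10, against 3.32%, 3.36% and 8.33% of all genes. With each library clustered alone the OB-like and EMP-like differences were below 2-fold, at 109.6 and 194 CPM in OB-like and 87.6 and 159.8 CPM in EMP-like cells. Mmp9 was lower at 1.5 months in AD-like, LMP-like, OB-like and EMP-like cells. With Mmp14 in AD-like and Mmp16 in EMP-like cells these were 2 of 8, 1 of 10, 1 of 8 and 2 of 10 members, against 5.50%, 4.73%, 5.52% and 9.82%. In LMP-like cells the order turned with up to 10% mitochondrial UMIs allowed, to 49.2 CPM of Mmp9 at 1 month and 72.9 CPM at 1.5 months. In the Cdh15-high class, by contrast, Mmp9 and Mmp11 were higher at 1.5 months, 2 of 9 against 8.11%, the former with the dependence on the clustering given above. Neutrophil-like cells supplied 63.5% of the Mmp9 UMIs of the 1 month library and 5.01% of the 1.5 month library, and the mature neutrophil markers moved alike in the mesenchymal cells, as given above. Their part in the Mmp9 levels of these classes was not tested. At 3 against 1.5 months Mmp13 was 2.10-fold (1.96 to 2.25) lower in AD-like cells, 1 of 7 members against 2.91% of all genes. In LMP-like cells Mmp3 was 4.47-fold (3.72 to 5.37) higher, 1 of 10 against 2.15%, and Mmp11 2.68-fold (1.43 to 5.56) lower, 1 against 2.07%. Neither held at a resolution of 1.2, where Mmp3 was at 5.22 CPM at 1.5 and 0 at 3 months, and Mmp11 was at 11.1 and 7.68 CPM, less than 2-fold apart. In EMP-like cells Mmp13 was higher at 3 months, 1 of 9 against 9.03%, with the dependence on the clustering given above, and Mmp11 and Mmp16 lower, 2 against 11.1%, of which Mmp11 was under 10 CPM at both ages at a resolution of 0.5 and with the libraries clustered alone, and 10.2 and 9.64 CPM at a resolution of 1.2. In OB-like cells and in the Cdh15-high class 0 members were past 2-fold in either direction, where 2.66% and 7.04% of all genes were higher and 2.32% and 3.11% lower at 3 months.

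The genes whose levels followed each member most closely were found over 58 pairs of class and library with at least 50 cells, among 7005 genes, by Pearson's r of log2(CPM + 1). The points share libraries and depth, and the values are descriptions. For the gelatinases they were Nbl1 (r = 0.95), Serpinf1 (r = 0.94) and Lum (r = 0.94) for Mmp2 and Dgat1 (r = 0.74), Gm5483 (r = 0.72) and Stfa2l1 (r = 0.72) for Mmp9. For the stromelysins they were Crabp2 (r = 0.91), Igfbp6 (r = 0.88) and Cyp2f2 (r = 0.85) for Mmp3 and Foxs1 (r = 0.89), Heyl (r = 0.88) and Pde5a (r = 0.88) for Mmp11. Mmp13 ran most closely with Podnl1 (r = 0.86), Kcnk2 (r = 0.83) and Olfml3 (r = 0.83). Mmp14 ran with Clcn4 (r = 0.88), Phlda3 (r = 0.87) and Dbn1 (r = 0.87), and Mmp16 with Ptgis (r = 0.86), Robo2 (r = 0.86) and Mlip (r = 0.86). Among the inhibitors, the closest genes were Kdelr3 (r = 0.92), Copz2 (r = 0.92) and Ccdc80 (r = 0.92) for Timp1, Htra1 (r = 0.87), Pdlim4 (r = 0.87) and Mmp14 (r = 0.85) for Timp2 and Tshz2 (r = 0.87), Osmr (r = 0.87) and Tns2 (r = 0.87) for Timp3. Timp2 was the only member with another member, Mmp14, among its 3 closest genes.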

How the data were processed

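Single cells of the 4 libraries were captured on the 10x platform. The authors deposited unnormalized UMI counts per gene and cell. Per the labels' processing notes and the study's methods, reads were aligned to a modified mm10 genome with Cell Ranger 3.0.2. From the deposited counts, barcodes outside the study's limits were dropped (fewer than 200 or more than 6000 genes, more than 5% mitochondrial UMIs), and no doublet caller was run. Cells were clustered with Seurat 5.3.0 in R 4.3.3 (2000 variable genes without the members, 30 components, resolution 0.8; the 1 and 1.5 month libraries aligned by canonical correlation, the others alone), first in all cells and then within the mesenchymal cells. Clusters were named from marker lists, or left unnamed. Levels are CPM, the UMIs of a gene over a class scaled by its total, and a fold past 2 with at least 10 CPM in the higher group was counted as different. Classes of fewer than 50 cells entered no comparison, and 1 library per age allowed no test. Shares were taken after thinning each cell to 3000 UMIs, leaving out shallower cells. The script for levels and calls was tried on simulated Poisson counts with a 1.5-fold limit. The limit of 2 and an uneven spread of UMIs among cells were not part of that trial. Named were all 10 members, related genes with at least 50 CPM in a class of at least 50 cells, and the 3 genes closest to each member. The values of 1 related gene are not reported here. The members and lists were chosen with earlier results of these data known. Gene positions are from GENCODE M21.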

Additional observations from a re-analysis of the deposited data

How the results depend on the processing

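No paired analysis was possible because each age was 1 library, and for the same reason no replicate could be left out. Counting intervals leave out the spread between mice, the names of classes were rebuilt, and the 16 month library differed from the others in its gene list and cell barcodes. In small classes, levels below 10 CPM rest on few UMIs. Of the counts under other settings, 145 stayed within the limit of 1.5 times and 26 moved. Of single members' values, 683 stayed, 80 moved and 4 changed sign. The causes were not tested. The count of members higher in mesenchymal than hematopoietic cells at 1.5 months, 3 as reported, was 1 with the library clustered alone and with a 3-fold limit, 5 with no minimum CPM, 6 with 10% mitochondrial UMIs allowed, and 7 by the mean over cells, with cells thinned to 3000 UMIs, with a 1.5-fold limit and without CH-like cells. Mmp9, the 1 member higher in hematopoietic cells, left 0 without CH-like cells at 1.5 and 3 months, and at 3 months also with at least 1000 genes per cell and with a 3-fold limit. Between 16 and 3 months the 0 members apart in AD-like cells became 1 at resolution 1.2, without the 5% of cells with the most UMIs and with thinned cells, 2 with no minimum CPM and 4 at 1.5-fold. The 1 member apart in OB-like cells became 0 at resolution 1.2, with 10% mitochondrial UMIs and at 3-fold, 2 without the deepest 5% of cells, by the mean over cells and with thinned cells, and 3 at 1.5-fold and with no minimum CPM. The log2 differences that changed sign were those between 16 and 3 months of Mmp13 in OB-like (0.81) and EMP-like cells (5.15) and of Timp1 in EMP-like cells (0.22) at resolution 1.2, and between mesenchymal and hematopoietic cells of Mmp16 at 1.5 months with the library clustered alone (-0.16). Of the 376 levels of at least 10 CPM of a member in a class and library, 311 to 369 stayed within 1.5 times under the other clusterings, filters and measures. Of 368 shares of cells with a UMI, 125 stayed within 1.5 times when cells were not thinned. The settings without CH-like cells, without osteoclast-like cells and with neutrophil-like cells in place of all hematopoietic cells were chosen after the data were seen. At resolution 0.5 the 16 month library held no EMP-like class.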

Other observations

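Genes that work with the 10 members were read in the same classes, as values without a test. Of 15 other metalloproteinases found in all tables, 2 reached 50 CPM in a class and 13 did not, with a highest level of 42.9 CPM. Mmp8, neutrophil collagenase, was at 562, 346 and 942 CPM in neutrophil-like cells at 1, 3 and 16 months. It was at 733 CPM in the unnamed hematopoietic cluster of 108 cells at 1 month. Mmp23 was at 299.6 CPM in LMP-like cells at 1.5 months and at 280.0 CPM in AD-like cells at 3 months. Of 4 other inhibitors, 3 reached 50 CPM. Tfpi2 was at 72.4, 123 and 137 CPM in endothelial-like cells at 1, 3 and 16 months, Timp4 at 85.5 CPM in mural-like cells at 1.5 months and at 53.6 CPM in AD-like cells at 16 months, and Reck, a membrane-bound inhibitor, at 52.6 CPM in LMP-like cells at 16 months.

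The ADAMTS proteases, which Timp3 also inhibits, reached 50 CPM in 7 of 18 cases. In endothelial-like cells at 16 months Adamts1, Adamts4, Adamts5 and Adamts9 were at 1216, 807, 939.8 and 499 CPM, beside the 1963 CPM of Timp3 there. At 3 months the same genes were at 576, 207, 657 and 242 CPM. AD markers summed to 3029 and 11250.5 CPM in the endothelial-like cells at 3 and 16 months, and the part of that RNA in these levels was not tested. Adamts2, which trims procollagen, was at 345, 593, 519 and 462 CPM in AD-like cells. Adamts8 reached 64.8 CPM in EMP-like cells at 3 months and Adamts14 89.8 CPM in Ocy-like cells at 1.5 months.

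Of 12 genes of metalloproteinase activation and their partners, 11 reached 50 CPM, all but Plau. Serpine2 stood at 5429, 7328, 8364 and 5132 CPM in the Cdh15-high class. The convertases differed by class: Furin was at 211 CPM in osteoclast-like cells at 1 month, Pcsk6 at 442 CPM in Ocy-like cells at 1.5 months, and Pcsk5 at 70.5, 66.7, 61.5 and 68.9 CPM in OB-like cells. Plat, Plaur, Lcn2, Cd44, Bsg and Lrp1 were also among them. All 8 other bone matrix proteases reached 50 CPM (Ctsk, Fap, Htra1, Ctsb, Ctsg, Elane, Ctsl and Adam17). Ctsk, the collagenase of osteoclasts, was at 2055 CPM in osteoclast-like cells at 1 month, and at 448, 556, 688 and 565 CPM in LMP-like cells.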
